A study of Mus musculus with 11 samples.

Results

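The 385 WDR5 peaks described here were selected from the 725 peaks of list 1 of wild-type (WT) day 2 embryoid bodies on chromosomes 1 to 19, X and Y, as those that shared no base with any of the 9836 peaks of the WT H3K4me3 list. The other 340 peaks of the list shared at least 1 base with that mark and serve as the comparison. Calls of WDR5 in list 1 and of H3K4me3 in WT chose the members, so their enrichment and their distance to the mark are given as a description with no test. Of the 385 members, 217 were also called in WT WDR5 list 2, 37 were called in a WDR5 list of the double knockout, and 188 were called in list 2 and in neither list of the double knockout.

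Embryoid bodies are aggregates of differentiating embryonic stem cells. These were mouse cells with GFP knocked in at the Rx gene, a gene of the early eye field and forebrain, and the labels name SFEBq as the way they were differentiated, with 5% KSR in the medium. In all groups matrigel (2%) was given at day 1 and doxycycline was taken away at day 0, and the labels do not say what doxycycline controlled. Proteins on chromatin were mapped by CUT&RUN, in which an antibody (2 µg per sample) guides a nuclease to cut out the DNA around its target. The groups were WT with antibodies to WDR5 (2 lists), P53 (2 lists) and H3K4me3 (1 list), the double knockout of Wdr5 and p53 (DKO) with WDR5 (2 lists), P53 (2 lists) and H3K4me3 (1 list), and the Wdr5 knockout (KO) with H3K4me3 (1 list). The sources used here do not say whether a genotype was 1 clone or which part of each gene was deleted.

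WDR5 is a WD-repeat protein that holds together the MLL and SET1 complexes, the enzymes that methylate lysine 4 of histone H3. The trimethylated form, H3K4me3, sits on the nucleosomes around the starts of active genes, mostly just beside the nucleosome-depleted region where transcription factors bind. WDR5 also belongs to the NSL complex, which holds the acetyltransferase KAT8, and it has a surface that binds MYC.

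6 stretches of promoter that lay under members are shown because these members were among the highest called in both WT lists and in no DKO list, or, for Sp1, because a WT P53 peak lay on the same place. They come from RefSeq for GRCm38.p6, which is mm10, and hold only the bases before the start that were both in the table's window and under the peak. Each runs 5′ to 3′ on the gene's own strand. Capitals mark matches on either strand to the motifs searched, which are spelled out beside the motif counts except for the p53 half-site, given by name. Tomm40 (minus strand, chr7:19715527-19715679) is shown from 250 to 98 bases before the start. Zcchc7 (plus strand, chr4:44756309-44756537) is shown from 250 to 22 bases before it, and E2f3 (minus strand, chr13:29986064-29986291) from 228 to 1. Uvrag (minus strand, chr7:99141203-99141394) is shown from 250 to 59 bases before the start, Hsph1 (minus strand, chr5:149636382-149636586) from 250 to 46 and Sp1 (plus strand, chr15:102406066-102406203) from 250 to 113.
Tomm40: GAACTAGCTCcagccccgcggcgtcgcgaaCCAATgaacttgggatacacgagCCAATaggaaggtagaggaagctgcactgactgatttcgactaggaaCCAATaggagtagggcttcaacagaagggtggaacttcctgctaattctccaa
Zcchc7: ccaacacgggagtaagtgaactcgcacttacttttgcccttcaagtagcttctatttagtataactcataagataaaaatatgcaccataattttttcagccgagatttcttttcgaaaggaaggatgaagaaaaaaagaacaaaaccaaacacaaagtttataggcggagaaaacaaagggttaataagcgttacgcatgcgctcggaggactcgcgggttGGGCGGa
E2f3: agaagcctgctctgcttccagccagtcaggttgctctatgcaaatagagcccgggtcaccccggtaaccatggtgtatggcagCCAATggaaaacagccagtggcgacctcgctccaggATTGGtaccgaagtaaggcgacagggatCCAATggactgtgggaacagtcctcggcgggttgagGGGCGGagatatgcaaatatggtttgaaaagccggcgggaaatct
Uvrag: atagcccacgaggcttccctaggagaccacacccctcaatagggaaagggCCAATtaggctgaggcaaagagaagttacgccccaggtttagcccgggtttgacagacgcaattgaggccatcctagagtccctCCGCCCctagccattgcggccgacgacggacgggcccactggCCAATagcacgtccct
Hsph1: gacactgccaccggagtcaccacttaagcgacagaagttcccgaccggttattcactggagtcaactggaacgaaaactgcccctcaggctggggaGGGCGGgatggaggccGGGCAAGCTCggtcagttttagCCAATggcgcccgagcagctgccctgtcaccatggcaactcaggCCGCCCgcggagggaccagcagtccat
Sp1: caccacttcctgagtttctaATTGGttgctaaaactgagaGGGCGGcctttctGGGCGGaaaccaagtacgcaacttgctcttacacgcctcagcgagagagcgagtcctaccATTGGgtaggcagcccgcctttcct
The CCAAT box, written CCAAT or ATTGG, was present 3 times in the Tomm40 stretch and 3 times in the E2f3 stretch, and 2 times each in those of Uvrag and Sp1. The first 10 bases of the Tomm40 stretch and the 10 bases from position 113 of the Hsph1 stretch match the p53 half-site. The Hsph1 stretch held 1 CCAAT box and 2 GC boxes, and the Zcchc7 stretch held 1 GC box close to the start and no CCAAT box.

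The peak values are the authors' own for each list. Fold enrichment is the number of fragments over a summit divided by the local background of the same library, and it ranks peaks within a list only. Lists rested on 22.3 to 57.5 M (mega) fragments, with 26.6 and 24.1 M for WT WDR5 and 36.4 and 33.7 M for DKO WDR5. List 2 of WT WDR5 had 348 of its 450 summits (77.3%) on the very base of a summit of list 1, and in DKO WDR5 the share was 75.3%. In WT P53 it was 80.3%, but in DKO P53 only 10.6%. The header of list 2 names a merged alignment in all of these pairs. Each pair was treated as 1 library, and no difference between genotypes has a replicate check.

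The members fell into a group beside the mark and a group far from it. The distance to the nearest WT H3K4me3 peak had a median of 5637 bases with quartiles of 236 and 36127. With 2 humps the median is unstable, and it was 1556 bases for list 2 taken in place of list 1, 1897 for peaks in both lists and 2352 for list 1 peaks at or above its median -log10 q. Within 1 kb of the mark lay 165 members (42.9%, Wilson 95% interval 38.0% to 47.8%), 144 of them within 500 bases. Beyond 10 kb lay 173 members (44.9%), which left only 47 between 1 and 10 kb. The most filled 100-base step was 100 to 200 bases with 59 members, against 20 at up to 100 bases. Of the 165 members beside the mark, 141 had it on 1 side and 24 on both sides.

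**Figure D1:**
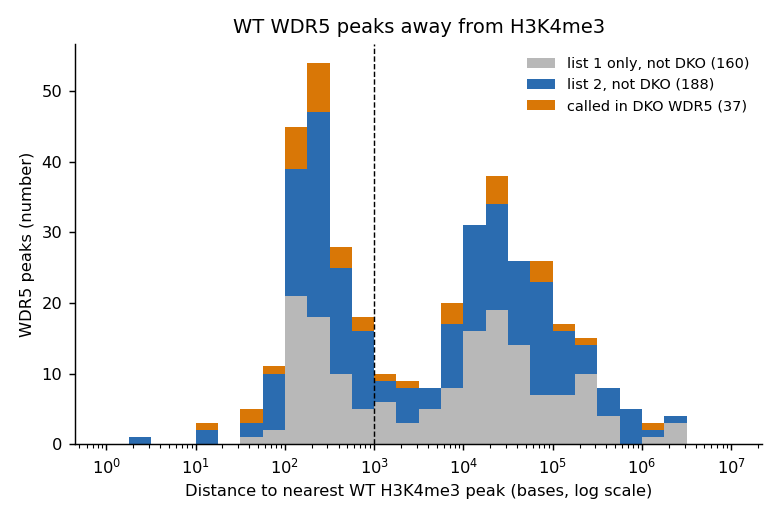
Number of members by distance to the nearest WT H3K4me3 peak in bases on a log axis, coloured by whether the peak was called in list 1 only (160), also in list 2 and not in DKO (188), or in a DKO WDR5 list (37). The dashed line marks 1 kb, with 165 members to its left and 220 to its right, and both humps hold all 3 colours.

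The same measure in other lists shows where this placement differs. Of the 308 WT P53 peaks of list 1 that lay away from the mark, 11 (3.57%, interval 2.01% to 6.28%) were within 1 kb of it. Of the 71 DKO WDR5 peaks of list 1 away from the WT mark, 30 were within 1 kb (42.3%, 31.5% to 53.8%), and 35 of the 71 overlapped a member. Measured against the H3K4me3 list of DKO itself, 43 of 102 DKO WDR5 peaks away from the mark were within 1 kb (42.2%). Of the 36 DKO peaks over no member, 10 were within 1 kb of the WT mark (27.8%, 15.8% to 44.0%). Of the 72 peaks of DKO P53 list 2 away from the WT mark, 11 were within 1 kb (15.3%, 8.75% to 25.3%). That interval overlaps the one of the DKO WDR5 peaks over no member. The WT P53 list had the lowest share, and these shares are a description with no test.

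At the edge of the rule, 5 peaks were counted as on the mark through an overlap of 9 to 36 bases. The narrowest was the peak at Canx, the endoplasmic reticulum chaperone calnexin, with 9 bases and fold enrichments of 4.38 and 4.14 in the 2 WT lists. The nearest members were those at Zfp78, 2 bases away (6.07 and 6.05), at Rab40c, 10 bases away (4.34 and 4.24), at Abhd2, 10 bases away (5.14 and 4.40), at 3020 bases from Arrdc1, 17 bases away (4.96 and 5.18), and at Rpl35a, 33 bases away (5.86 and 5.28). Members and peaks on the mark therefore grade into each other over short distances. At the other extreme, the 5 farthest members lay 1518 to 2529 kb from any mark. Those at Fancl (4.94), in Ccser1 (4.39) and in 2 gene-poor places (4.39 and 5.18) were called in list 1 only.

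Members sat at gene starts when they were beside the mark, and mostly elsewhere when they were not. Of the 165 members beside the mark, 129 (78.2%, interval 71.3% to 83.8%) lay within 1 kb of a start site of the RefSeq table, against 56 of the 220 others (25.5%, 20.2% to 31.6%). A gene end here is either outer edge of a gene's span, so it can be the side where the gene starts. Over all 385 members, 185 were within 1 kb of a start. A further 38 were within 1 kb of a protein-coding gene end with no start site in the table. Of the rest, 59 were inside a protein-coding gene and 103 outside protein-coding genes, where they may lie in genes of other kinds. Since the table of starts is not complete, some of the 38 may also be starts. The 10 members on chromosome 18, for which no start sites were used here, are placed by gene ends and gene bodies only. Of the 21883 protein-coding genes in the table, 240 (1.1%) had a member within 1 kb of an end. Peaks on the mark did so at 300 genes, and 5 genes had both kinds.

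At starts with the mark near, WDR5 summits were mostly upstream of the start and the mark was more often downstream of the peak than upstream. The summits of the 185 members near a start had a median position of 160 bases upstream (quartiles -307 and 58 bases from the start), and 121 were upstream. The 209 WDR5 peaks on the mark near a start had a median of 71 bases downstream, with 93 upstream. Among the 129 members near both a start and the mark, the mark lay only downstream of the peak, in the sense of the gene, at 78. It lay only upstream at 30 and on both sides at 21. The other 56 of the 185 had no WT mark within 1 kb. At 200 bases upstream of the start, a WT WDR5 peak covered 49.2% of the 185 starts and a WT H3K4me3 peak 4.86%. At 500 bases downstream these shares were 4.32% and 42.2%. The rule demands separate places for WDR5 and the mark, and it bears on the side too, since the mark covered 78.0% of the 209 starts of the comparison at 200 bases downstream and 47.4% at 200 bases upstream. Both the separation and the side are a description only.

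**Figure D2:**
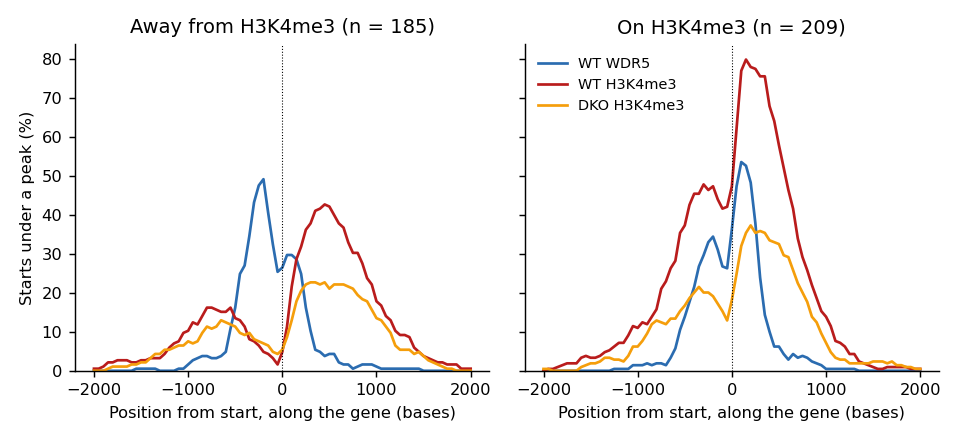
Share of starts under a called peak, in percent, by position along the gene from the start in bases, for 185 starts within 1 kb of a member (left) and 209 starts within 1 kb of a WDR5 peak on the mark (right). Lines are WT WDR5, WT H3K4me3 and DKO H3K4me3; on the left WDR5 is highest near 200 bases upstream and H3K4me3 near 500 bases downstream, while on the right both are highest shortly after the start.

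The promoters printed above, other than that of Sp1, which had no WT mark nearby, show this arrangement when placed by the gene named. They were printed only where at least 100 bases before the start lay under the member, so WDR5 upstream was set by that choice. At Iqch, also called in both WT lists and in no DKO list, the summit lay 160 bases downstream of the start and the mark upstream. At E2f3, which drives genes needed for DNA replication, WDR5 covered 228 bases before to 46 bases after the start in list 1, with fold enrichments of 7.58 and 7.01 in the 2 WT lists. The WT mark began at 201 bases and ended at 1393 (fold enrichment 4.79), and the DKO mark ran from 77 to 488 (3.18). No DKO WDR5 peak and no P53 peak lay on it. At Zcchc7, a subunit of the nuclear RNA surveillance machinery, WDR5 (8.24 and 7.73) ended 22 bases before the start and the WT mark ran from 141 to 859 bases after it (7.49).

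At Uvrag, an autophagy gene, WDR5 (7.30 and 6.78) ended 59 bases before the start and the WT mark ran from 109 to 377 bases after it (3.34). At Hsph1, a heat shock protein of the HSP110 family, WDR5 (7.23 and 6.30) ended 46 bases before the start and the mark ran from 300 to 645 (4.40). At Tomm40, the channel of protein import into mitochondria, WDR5 (8.68 and 8.03) reached from -609 to -98 bases relative to the start and the WT mark from 65 to 552 bases after it (3.55). The DKO mark at Tomm40 instead ran from 338 bases before to 187 after the start (4.11), over the place where WT had WDR5. A nearer start, that of Gm38955 on the plus strand, lay 63 bases from this member and placed it in the counts above. From that start the summit was 256 bases downstream and the WT mark lay upstream, the reverse of its place at Tomm40. No DKO WDR5 or P53 peak lay on the members at Zcchc7, Uvrag, Hsph1 and Tomm40.

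**Figure D3:**
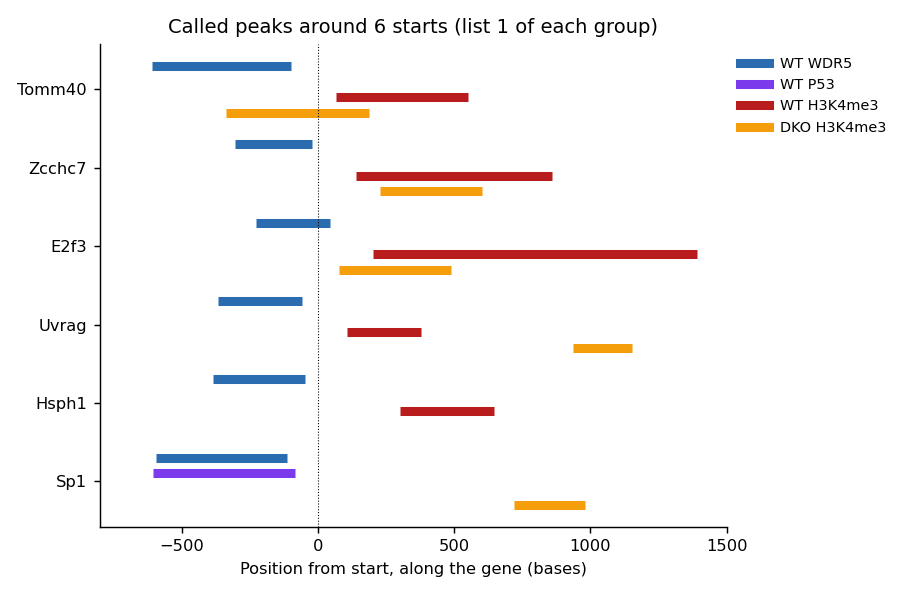
Called peaks of list 1 of each group around the starts of the 6 genes whose promoter sequence is printed, with position along the gene from the start in bases. In WT the WDR5 bars end before the H3K4me3 bars begin at Tomm40, Zcchc7, E2f3, Uvrag and Hsph1, and at Sp1 a WT P53 peak lies over the WDR5 peak with no WT H3K4me3 peak in view.

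Promoter windows that members overlapped were rich in GC and CpG. Values are for whole windows, also where a peak covered only part of one. Members overlapped 203 of the 32851 promoter windows of 300 bases, those of 179 genes, and some windows are alternative starts of 1 gene that share bases. Their median GC content was 61.3% and their median CpG count 23, against 52.7% and 7 over all windows and 62.0% and 23 over the 4454 windows under a WT H3K4me3 peak. A CCAAT box (ATTGG, searched like all motifs on both strands) was in 57.1% of member windows (116 of 203), in 47.9% of windows under WDR5 peaks on the mark, in 36.5% of windows under the mark and in 37.4% of all windows. A GC box (GGGCGG) was in 81.3%, 69.1%, 66.4% and 35.7% of these in turn. An E-box (CACGTG) was in 15.3%, 9.22%, 8.73% and 7.15%. The ETS motif (CCGGAAG) went the other way, with 10.8% of member windows, 21.7% of those under WDR5 peaks on the mark, 24.0% of those under the mark and 8.86% of all.

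The other motifs were in at most 10.3% of member windows. The YY1 core (AAGATGG) was in 8.87% of member windows, 10% of windows under the mark and 6.34% of all. The ZBTB33 core (TCTCGCG) was in 6.40%, 6.17% and 2.56% of these in turn, the CRE (TGACGTCA) in 3.45%, 4.09% and 1.79%, and the p53 half-site in 10.3%, 5.25% and 8.36%. None of the motifs spelled out above lies within another, and these shares are a description with no test. E-boxes were in 12 of the 53 member windows far from the mark (22.6%) and in 19 of the 150 beside it (12.7%), and GC boxes in 67.9% and 86.0%.

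In enrichment the members had a median near that of peaks on the mark but did not reach as high. Their fold enrichment had a median of 4.88 (1.84 to 14.3) and a 90th percentile of 6.53, against a median of 5.05 (1.95 to 42.5) and a 90th percentile of 8.40 for peaks on the mark. Their summits held a median of 19 fragments (13 to 101), so single members rest on few fragments. The highest pileup, 101, belonged to a peak inside Sfi1 with the lowest fold enrichment, 1.84, where the local background of the library was high. Members called in list 2 had a median of 5.32 in list 1, and those not called there 4.40. List 2 called 217 members (56.4%, interval 51.4% to 61.2%), beside 60.4% of all 725 peaks. Of the 217, 174 (80.2%) had the same summit base in both lists, and in none of these 174 was the pileup of list 2 the higher one.

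**Figure D4:**
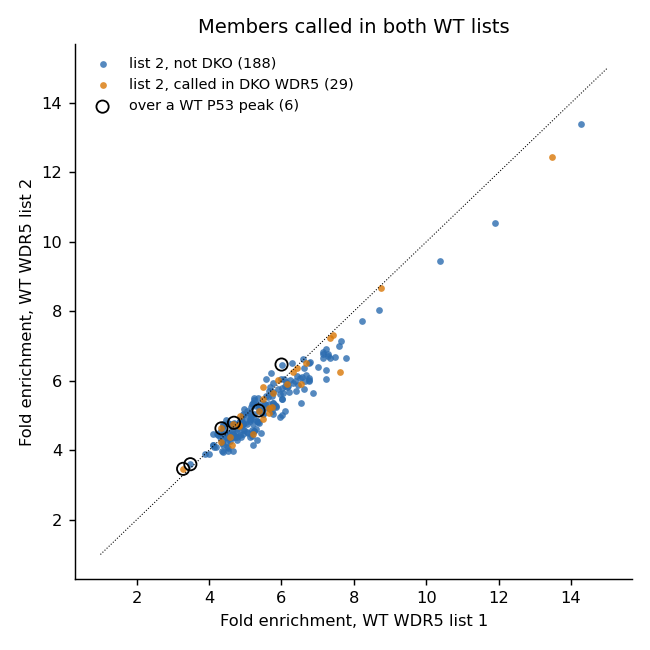
Fold enrichment of the 217 members called in both WT WDR5 lists, list 1 against list 2, in blue where no DKO WDR5 list called them (188) and in orange where one did (29). Open circles mark the 6 that overlap a WT P53 peak, and the dotted line is equality.

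The highest members were not at promoters. The first, chr18:68692070-68692271, had fold enrichments of 14.3 and 13.4 in the WT lists and lay 390905 bases from the mark and 262750 bases from the nearest end of a protein-coding gene, Mc2r. The second, chr12:78350902-78351131, lay inside Gphn, which encodes the scaffold gephyrin of inhibitory synapses, and had 13.5 and 12.4 in WT against 10.1 and 9.21 in the DKO WDR5 lists. The third, chr17:70963671-70963891, had 11.9 and 10.5 and lay 10072 bases from an end of Myl12b. The fourth, chr11:120800171-120800494, had 10.4 and 9.44 and lay 3744 bases from Dus1l, a tRNA dihydrouridine synthase.

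Only the Gphn member among these 4 was called in DKO, and all 4 lay over 10 kb from the WT mark. After them came members beside genes. Cdk19, a kinase of the Mediator complex, had a member 97 bases from an edge of its span, with 8.75 and 8.69 in WT and 4.39 in DKO list 1. Camta1, which encodes a calmodulin-binding transcription activator, had one inside the gene at 255533 bases from the mark, with 7.43 and 7.33 in WT against 11.1 and 9.96 in DKO. Relb, a subunit of NF-kappa-B, had one 614 bases from an edge of its span, with 7.35 and 7.24 in WT and 5.26 in DKO list 1. Which side of the gene these edges are was not told apart here.

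Among the 20 highest members called in both WT lists and in no DKO list, 12 have not yet been described. Efcab12 had 7.65 and 7.14 at its start, with the mark 13795 bases away. Cdca2 and Kctd9 shared a member over an end of both, with 7.47 and 6.70 and the mark on both sides, 59 bases off at the nearer. Cdca2 encodes a chromosome-bound regulator of protein phosphatase 1 in mitosis. Prrc2a had 7.34 and 6.66, Iqch 7.29 and 6.72, and Rhpn2 7.22 and 6.91, all with the mark 128 to 432 bases away. Atxn7l2 and Sypl2 shared a member of 679 bases with 7.15 and 6.76, 9466 bases from the mark. Atp4a, the gastric proton pump, had 7.14 and 6.66 inside the gene, and Zfp438 had 6.87 and 5.65 at an edge of its span, 258157 bases from the mark. A member 1569 bases from Ankar (7.24 and 6.05) lay 399 bases from the start of Gm39662. Members near Tmc5 (7.78 and 6.66) and at chr4:130637914-130638230, over 10 kb from any protein-coding gene end (7.02 and 6.40), lay outside protein-coding genes. Another inside Gm38510 (7.14 and 6.84) also lay under a KO H3K4me3 peak (6.16) and a DKO P53 peak (5.44).

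Of the 12 gene lists looked up, cell cycle and ribosomal protein genes had the most members. Over all protein-coding genes, 240 of 21883 (1.1%) had a member within 1 kb of an end. Whether members are more frequent at these genes than at other marked promoters was not tested. Among 49 cell cycle genes 5 had a member within 1 kb of an end and 2 had a WDR5 peak on the mark. Cdt1, which loads the replicative helicase, had 3.86 in list 1 only. Cdkn2d, an inhibitor of CDK4 and CDK6, had 5.22 and 4.97 in the 2 WT lists, 219 bases from the mark. Fbxo5, which encodes the inhibitor EMI1 of the anaphase-promoting complex, had 4.57 and 4.38 in WT against 4.62 and 4.61 in DKO. E2f3 and Cdkn2d were the ones called in list 2 and not in DKO.

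Among 84 ribosomal protein genes 6 had a member, beside 1.1% of all protein-coding genes, and 19 had a WDR5 peak on the mark. Rpl35a had 5.86 and 5.28, Rpl7a 5.57 and 5.58, Rps29 4.77 and 4.51, and Rpl10 4.39 and 4.16 in the 2 WT lists, while Rpl8 had 4.41 in list 1 only. None of these 6 was called in a DKO WDR5 list, which is near the low share of all members (9.61%). The mark was 33 to 824 bases from each. At Rpl7a, Rpl8 and Rpl35a, a DKO H3K4me3 peak lay over the place of the WT member (3.85, 3.69 and 4.38).

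Of 26 genes of MLL and SET1 complexes 1 had a member, Kat8, whose product works with WDR5 in the NSL complex, with 4.59 in list 1 only and 4.17 in DKO list 1. Of the p53 target genes, 39 of 40 were matched by symbol, and Sesn1, a stress-induced sestrin, alone had a member within 1 kb, with 6.47 and 5.88, and that peak lies on the start of Cep57l1. Tomm40 was the only one of 29 mitochondrial and housekeeping genes. Translation factor (44), pluripotency (30), anterior neural and eye field (37), mesoderm and endoderm (37), extraembryonic (25), fibroblast feeder (21) and histone genes (20) had 0. With 1.1% of all protein-coding genes holding a member, 0 in lists of this size is near the background, and the lists were not tested.

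Outside those lists, members at starts included regulators of transcription, named here after their values were seen. Mxd4, Mlx and Mga belong to the network of MAX and its partners, whose dimers bind E-boxes. Mxd4 had 6.79 and 6.55 in the 2 WT lists, 78 bases from the mark. Mga had 5.97 and 5.62, 96539 bases from the mark, and Mlx had 5.68 and 5.20, 181 bases from it. None of the 3 was called in DKO, where only 9.61% of all members were called. Nfya, a subunit of the factor that binds CCAAT boxes, had 4.79 in list 1 only, and Sp2, a relative of the GC-box factor SP1, had 5.75 and 5.13. Cited2 (4.39 and 4.76), Kdm3a, a histone H3 lysine 9 demethylase (5.25 and 5.46), and Cbx8, a Polycomb protein (4.52 and 4.47), were likewise called in both WT lists and not in DKO.

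Some members lay at genes of RNA processing, also named after their values were seen and with no list counted. Prpf3, of the spliceosome, had 6.68 and 6.17, Hnrnpl 6.62 and 6.37, Rbm15 5.77 and 5.05, Upf2, of nonsense-mediated decay, 4.52 and 4.08, and Snrpd2 4.47 and 4.39 in the 2 WT lists. None of these 5 was called in DKO WDR5, beside 9.61% of all members. Hnrnpa1 (6.15 and 5.90 in WT, 4.98 and 5.16 in DKO) and the paraspeckle gene Pspc1 (5.74 and 5.25 in WT, 4.56 and 4.51 in DKO) were called in all 4 WDR5 lists. Whether such genes are more frequent among members than among marked promoters was not tested.

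WDR5 calls in DKO were rarer at members than at WDR5 peaks on the mark. A DKO WDR5 list called 37 of 385 members (9.61%, interval 7.05% to 13.0%), beside 20% of all 725 peaks and 108 of the 340 peaks on the mark (31.8%, 27.0% to 36.9%). A two-sided Fisher's exact test gave an odds ratio of 0.228 (95% interval 0.152 to 0.344) and a p of 1.97e-13 adjusted over 3 odds ratios. Within 4 bins of WT fold enrichment it was 0.256. Without the WDR5 peaks that overlap a DKO P53 peak it was 0.348 (30 of 372 members and 56 of 278 peaks on the mark, Fisher's exact test, adjusted p of 1.70e-05), an alternative chosen after seeing the data. All 37 were called in DKO list 1 and 24 in both DKO lists. The test covers the counting of peaks within these libraries and not the genotypes, since each genotype is 1 library. The DKO library was the deeper one, with 36.4 M fragments against 26.6 M, and the part of depth in the calls was not tested.

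The shares also depended on the distance to the ends of protein-coding genes. Within 1 kb of a protein-coding gene end, DKO WDR5 called 25 of 193 members (13.0%, interval 8.93% to 18.4%) and 48 of 226 peaks on the mark (21.2%, 16.4% to 27.0%), with intervals that overlap. Elsewhere it called 12 of 192 members (6.25%, 3.61% to 10.6%) and 60 of 114 peaks on the mark (52.6%, 43.5% to 61.6%). Of those 114, 52 also overlapped a WT P53 peak. Whether the odds ratio differs between the 2 kinds of place was not tested.

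**Figure D5:**
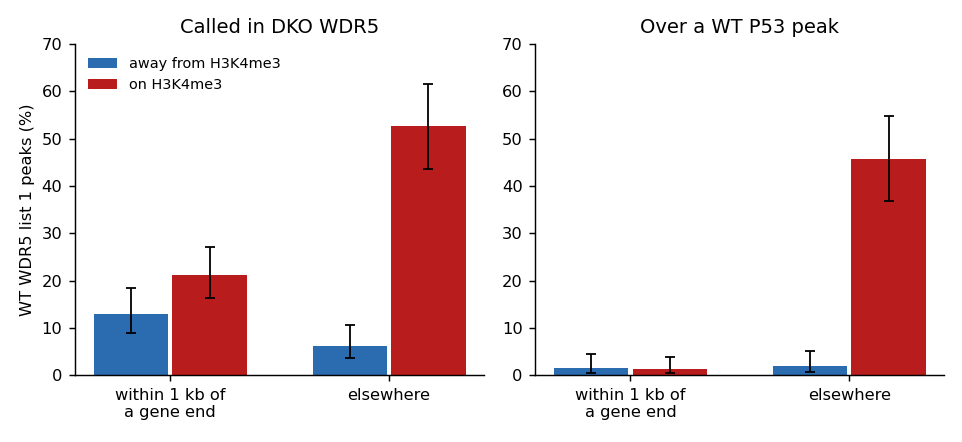
Share of WT WDR5 list 1 peaks, in percent, that a DKO WDR5 list also called (left) and that overlap a WT P53 peak (right), for peaks away from (blue) and on (red) WT H3K4me3, split by distance to protein-coding gene ends. Bars are shares and error bars Wilson 95% intervals; the 114 peaks on the mark and away from gene ends stand above the other 3 sets in both panels, with 52.6% and 45.6%.

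The 37 members that DKO also called were in the WT lists slightly above the rest, with a median fold enrichment of 5.37 against 4.87, and 29 of them were in WT list 2. Besides Gphn, Camta1, Cdk19 and Relb they included the following, named after their values were seen. Ruvbl2, an ATPase of chromatin remodelling complexes, had 5.91 and 6.03 in WT against 7.21 and 7.50 in DKO. Noa1 and Polr2b, the second subunit of RNA polymerase II, shared a member with 6.68 and 6.52 in WT and 5.08 in DKO list 1. Shb, an adaptor of tyrosine kinase signalling, had 7.61 and 6.25 in WT against 5.49 and 5.14 in DKO.

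A member at Phc1, a Polycomb protein, had 4.63 and 4.14 in WT against 5.79 and 5.41 in DKO. The member inside Dlg4, the postsynaptic scaffold PSD-95, had 5.50 and 5.81 in WT against 7.45 and 6.78 in DKO. Values of WT and DKO lists share no scale, so their sizes are not compared. The amount of WDR5 protein was not measured in these files. Of the 37, 7 lay under a DKO P53 peak, where the antibody's target was also labelled as deleted.

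P53 was seldom found on members. A WT P53 peak overlapped 7 of 385 members (1.82%, interval 0.883% to 3.70%), beside 8.55% of all 725 peaks and 55 of 340 peaks on the mark (16.2%, 12.6% to 20.5%). The same two-sided Fisher's exact test gave an odds ratio of 0.0960 (95% interval 0.0431 to 0.214) and an adjusted p of 1.85e-12. Of the 55 peaks on the mark, 51 also lay under a DKO P53 peak. Without all WDR5 peaks that overlap a DKO P53 peak, 2 of 372 members and 4 of 278 peaks on the mark remained, with an odds ratio of 0.370 (interval 0.0673 to 2.04) and an adjusted p of 0.410 by Fisher's exact test, so the call was lost. Within 1 kb of gene ends the shares were 1.55% of members and 1.33% of peaks on the mark.

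The 2 that remained were at Sp1 and Rap2b. Sp1, the GC-box transcription factor whose promoter is printed above, had WDR5 fold enrichments of 6.00 and 6.47 and P53 fold enrichments of 5.94 and 5.69, and no peak of WDR5 or P53 in DKO. Its nearest WT mark was 6493 bases away. The Sp1 stretch printed has no p53 half-site, but the WT P53 peak of list 1 ran from -606 to -83 bases relative to the start. The part of that peak outside the promoter window was not searched. Rap2b, a small GTPase, had a member 787 bases from its start with WDR5 at 4.69 and 4.79 and P53 at 8.96 and 7.69, 318 bases from the mark and with no call in DKO WDR5 or P53.

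The other 5 were all under a DKO P53 peak. One on chromosome 4 near Zfp981, in a cluster of zinc finger genes, had WDR5 at 3.48 and 3.60 and P53 at 19.3 and 17.6 in WT, and P53 at 3.46 in DKO list 2. The members at St6galnac1 (4.34 and 4.63 in the WT WDR5 lists), near Zfp982 (3.50 in list 1 only), at chr9:3030858-3031283 (5.37 and 5.15) and on chromosome Y (3.28 and 3.47) were called in both DKO WDR5 lists as well. At these 4 the WT P53 fold enrichment was 3.41 to 5.13 in list 1. These 4 places were thus called with both antibodies in WT and in DKO. In all, a DKO P53 list overlapped 13 members (3.38%, interval 1.98% to 5.69%), beside 10.3% of all 725 peaks and 62 of the 340 on the mark. Without DKO P53 list 2, the deeper one, 3 members (0.779%) were left.

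H3K4me3 in the mutants seldom covered the members. A KO H3K4me3 peak overlapped 2 members (0.519%), beside 11.4% of all 725 peaks, and a DKO H3K4me3 peak overlapped 30 (7.79%, interval 5.51% to 10.9%), beside 29.7%. The rule excluded the WT mark, and the KO library had 22.3 M fragments and 918 peaks, and the low shares are a description that the selection and the depth cannot be told apart from. Of the 30 members, 19 were within 1 kb of the WT mark. Ercc4, a nuclease of excision repair, had WDR5 at 5.49 in WT list 1 only and DKO H3K4me3 at 3.66. Ddx39b, an RNA helicase of mRNA export, had WDR5 at 4.71 and 4.42 in the WT lists and H3K4me3 at 5.33 in KO and 4.51 in DKO on the same place, with the WT mark 112 bases away.

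Some members had no WT mark near but a DKO one on them. Zbtb3 had WDR5 at 5.04 and 4.53 in WT and DKO H3K4me3 at 5.07, with the WT mark 3973 bases away. Prpf3 had DKO H3K4me3 at 3.78 with the WT mark 14630 bases away. Of the members with a DKO peak on them, 11 were over 1 kb from the WT mark. Some of these also lay under a DKO P53 peak, among them those inside Muc6 (6.26) and C130026I21Rik (4.82) and near Zfp982 (4.47). The DKO H3K4me3 library was deeper than that of WT, with 43.2 M fragments against 34.2 M, and the part of depth was not tested.

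Members were less often at gene ends than the peaks on the mark, 193 of 385 (50.1%, interval 45.2% to 55.1%) against 226 of 340 (66.5%, 61.3% to 71.3%). These ends are both edges of a gene's span, starts included. A two-sided Fisher's exact test gave an odds ratio of 0.507 (95% interval 0.375 to 0.685) and an adjusted p of 8.79e-06. As H3K4me3 is a mark of promoters, this is tied to the selection. It was 0.269 without the WDR5 peaks over a DKO P53 peak and 0.168 with peaks within 500 bases counted as on the mark. It was not past the threshold when the peaks of WT list 2 took the place of list 1 (0.782, with an adjusted p of 0.217 by Fisher's exact test), nor for the peaks called in both lists (0.759, adjusted p of 0.176) or for the peaks of list 1 at or above its median q score (0.889, adjusted p of 0.599).

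Members were spread over the genome with few clusters. Chromosome 7 held 52 (13.5%), against 7.36% of WT H3K4me3 peaks and 10.9% of WDR5 peaks on the mark. There were 5 pairs closer than 10 kb. The pairs at Tiam1 (219 bases apart, fold enrichments 5.26 and 4.50 in list 1) and Ptma (293 bases, 4.39 and 4.08) were each 2 summits at 1 gene. The pair at Sp1 was 6018 bases apart (5.29 and 6.00), that at Slc16a13 and Bcl6b 5374 (4.95 and 4.79) and that at Eloc and Tmem70 7793 (4.38 and 4.12). None of these 10 members was called in DKO, which is near the share of all members (9.61%). The widest members were those in Dlgap1 (797 bases, 5.36 and 4.82 in the WT lists), near Angptl6 (723 bases, 4.38 in list 1 only) and at Atxn7l2 and Sypl2.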

How the data were processed

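Peak lists of 11 CUT&RUN samples in 7 groups were used as deposited. Per the file headers, the authors called peaks on paired-end fragments with no control library, a q threshold of 0.01 and a 10 kb local background, in MACS (version 2.1.2 or 2.1.0.20150731). Named as well in the submitters' processing notes are Bowtie2, SAMtools 1.5, bedtools, HOMER 4.10 and build mm10; the role of each is not given in the sources used here. Per the file headers, the pileup is a coverage signal in fragments with no scaling for depth. Values of -log10 p and -log10 q and the fold enrichment, a ratio to local background, are the authors' deposited values, and p and q were used only to split lists. Without a control or spike-in, places of high background can be called in any list.

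Overlaps were computed on chromosomes 1 to 19, X and Y with a minimum of 1 shared base, in Python 3.11.15, pandas 2.3.3, SciPy 1.17.1 and statsmodels 0.14.6. The overlap and distance steps were tested on simulated data. Gene spans and 32851 promoter windows (250 bases before to 50 after a start) came from RefSeq tables of GRCm38.p6, matched by coordinates. Exons and introns were not analysed here. Shares have Wilson 95% intervals that cover counting error only. Fisher's exact tests, adjusted by Benjamini-Hochberg over 3 odds ratios, compare peaks within these libraries (n = 1 per group).

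The members and gene lists were chosen with earlier results of these data known. Members named were the 15 highest by fold enrichment, the 20 highest called in both WT lists and not in DKO, those over P53, the 5 nearest to and farthest from the mark, the 3 widest, close pairs, and those at genes of the 12 lists; others are said to be chosen after their values were seen. Sequences were those of the 5 highest such promoter members, and of the highest over P53, with at least 100 bases before the start. Alternatives changed thresholds, overlap, windows, gene sets and lists. Some members that this rule names are not reported here.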

Additional observations from a re-analysis of the deposited data

How the results depend on the processing

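Over 18 alternative settings, 97 values were recomputed. Of these, 72 stayed near the value reported or on its side of the threshold, 21 moved, 4 lost the threshold and 0 reversed. The odds ratio of a DKO WDR5 call kept its side of the threshold in all 11 alternatives (0.160 to 0.348), and that of a WT P53 overlap in 10 of 11. The peaks of list 1 at or above its median -log10 q gave 174 members, with 84.5% in list 2 and 56.3% at gene ends (odds ratio 0.889). Counting peaks within 500 bases as on the mark gave 241 members, 29.9% at gene ends and a median distance of 25876 bases. Using only summits gave a median of 1095.5 bases and 12.0% under a KO or DKO mark, and only the stronger marks gave 30401 bases and 12.5%. Peaks in both WT lists gave 217 members, 13.4% called in DKO, and a gene-end odds ratio of 0.759. Without WT WDR5 replicate 1 there were 229 members, 97.4% called in the other WT list, 13.5% in DKO, and a gene-end odds ratio of 0.782. Leaving out 1 list at a time, the share called in DKO was 6.23% to 13.5%, that under DKO P53 0.779% (without DKO P53 list 2) to 3.49%. Gene ends held 65.2% with a 5 kb window, 55.8% with all genes and 44.4% with starts only. The bins of fold enrichment and the removal of DKO P53 places (0.538% under WT P53, odds ratio 0.370) were chosen after seeing the data. No paired analysis was possible because the results come from no test over replicates, and lists numbered alike share no stated source. Member summits hold a median of 19 fragments, so a peak called in 1 list and not in another may lie close to the threshold in both, and an absent call does not show absence of binding.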
